A study of Mus musculus with 24 samples.

Results

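The livers of mice that lacked one phenylalanine tRNA gene were compared, as one group of 9, with the livers of 3 wild-type (WT) mice. The knockout group took together all liver samples of 3 knockout strains, tRNA-Phe-1-1-/-, then tRNA-Phe-2-1-/- and lastly tRNA-Phe-3-1-/-, each with 3 replicates (A, B and C), so that 12 of the 24 samples of the series were used. The other 12 samples are brains of the same 4 genotypes and were set beside the liver only where a liver result called for it. The mice were C57BL/6N males, 10 weeks old and matched by age and litter, kept on normal chow. All knockouts carried a homozygous CRISPR-Cas9 deletion made with the same guide RNA and bred for at least 10 generations, and the WT mice carried none. Each line stands for 1 deletion, so a line and its founder animal cannot be told apart. The study drew its mice from different litters, but the labels do not tie samples to litters or days, and p-values measure the spread between these samples.

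A tRNA with the anticodon GAA brings phenylalanine to the ribosome, and the mouse genome codes for it several times. Copies with the same anticodon but another tRNA body are called isodecoders. Pooling the lines asks which messenger RNAs of the liver moved alike whichever isodecoder gene was lost, and the separate lines show whether each of them carries the change. The 3 genes removed here are shown because their sequences differ by so little, with the bases that differ from tRNA-Phe-1-1 in capitals (73 bases each, 5′ to 3′, found by matching the guide to GRCm39).
tRNA-Phe-1-1: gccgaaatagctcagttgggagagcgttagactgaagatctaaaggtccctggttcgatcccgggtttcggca
tRNA-Phe-2-1: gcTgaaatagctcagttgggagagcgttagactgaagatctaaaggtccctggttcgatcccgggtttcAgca
tRNA-Phe-3-1: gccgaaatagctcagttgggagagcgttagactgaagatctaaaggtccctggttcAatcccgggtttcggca
The guide, with the PAM that Cas9 needs in capitals, is shown because it cuts inside the shared part of the gene.
tRNA-Phe guide: gcgttagactgaagatctaaAGG
Counted from 1 at the 5′ end of the tRNA gene, tRNA-Phe-2-1 differed from tRNA-Phe-1-1 by C3T and G70A, and tRNA-Phe-3-1 differed by G57A alone. The guide and its PAM matched all 7 tRNA-Phe genes from base 24 on, and the 5 tRNA-Phe-1 genes were identical to each other. In GRCm39 the 3 deleted genes lie at chr5:125483119-125483191 (minus strand), chr19:11985909-11985981 (plus strand) and chr13:22067055-22067127 (minus strand). The tables count messenger and other long RNAs, so the lost tRNAs themselves were not measured in these samples.

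Each sample held 32276896 (WT C) to 51584522 (tRNA-Phe-2-1-/- A) reads. The 8 hepatocyte markers were all detected, and their summed normalised count was 3800712 to 4619124 in the WT and 3219670 to 4822369 in the knockout samples. The summed markers of Kupffer cells, endothelial cells, stellate cells, cholangiocytes, neutrophils, B and T cells, erythroid cells, adipocytes and exocrine pancreas also overlapped between the groups. The widest relative gap between the medians was that of the adipocyte markers, which summed to 10.4 to 20.5 in WT and 13.4 to 113 in knockout samples. This sum lay near the floor, since 5 of the 6 adipocyte markers averaged under 10 normalised counts, including 1 at 0 in all samples. No tested marker of the 10 cell-type lists passed the threshold in the pooled comparison. Fewer cells of a type and less RNA per cell cannot be told apart in pieces of whole liver.

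Genes were tested if their normalised count averaged 10 or more, and 40 of 15856 passed an adjusted p of 0.05 in the pooled comparison (limma on log2(normalised count + 1), Benjamini-Hochberg adjustment, two-sided), which is 0.252% of the genes tested. Lower in the knockouts were 29 genes (0.183%) and higher were 11 (0.0694%). Both counts rested on single samples. Of higher calls there were 0 without WT B, WT C or tRNA-Phe-2-1-/- C and 1 or 2 without any of 6 other samples, and of lower calls 12, 2 and 0 without WT A, B and C and 14 to 42 without a knockout sample. Fatty acid and sterol genes (Acly, Acacb, Srebf1, Pnpla3, Pgd, Lss), the nuclear receptor gene Ppard and the RNA-decay genes Zfp36 and Zfp36l1 were among those that fell, and Rnase4, Ltbr, Nlrp12 and Irx1 were among those that rose. The falls were larger than the rises, with a median log2 fold change of -1.06 for the lower and 0.55 for the higher genes. A change of more than 2-fold was seen in 17 of the lower and 3 of the higher genes. In all 40 genes the 9 knockout samples lay on one side of the 3 WT samples, as they did for 4.57% of all genes tested (2.01% higher and 2.57% lower). Many calls were close to the threshold, since 22 of the 40 had an adjusted p of 0.04 or above.

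Fitted line by line, 9 of the 40 genes passed the threshold in all 3 lines, all of them lower than WT (0.0568% of the genes tested). These were Acly, Slc25a23, Ppard, Pgd, Cideb, Reep6, Zfp36, Zmiz1 and Myh6. In tRNA-Phe-1-1-/- all 40 passed, with a further 17 shared with tRNA-Phe-3-1-/- alone, 1 (Nlrp12) shared with tRNA-Phe-2-1-/- alone and 13 with neither. The background differed even more between the lines, since 17.3% of all genes passed in tRNA-Phe-1-1-/- (8.27% higher, 9.08% lower), but 0.132% in tRNA-Phe-2-1-/- (0.0126% higher, 0.120% lower) and 0.883% in tRNA-Phe-3-1-/- (0.189% higher, 0.694% lower). The 3 lines were compared with the same 3 WT samples, so their agreement is not independent. The sizes were close to each other in the lines, but the choice of these genes favoured this. In the pooled fit differences between lines count as spread, so genes with unlike lines were less able to enter the 40. Taken without its sign, the log2 fold change had a median over the 40 genes of 0.96 for tRNA-Phe-1-1-/-, 0.97 for tRNA-Phe-2-1-/- and 1.06 for tRNA-Phe-3-1-/-, and the largest line value was 1.05 to 1.93 times the smallest.

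**Figure D1:**
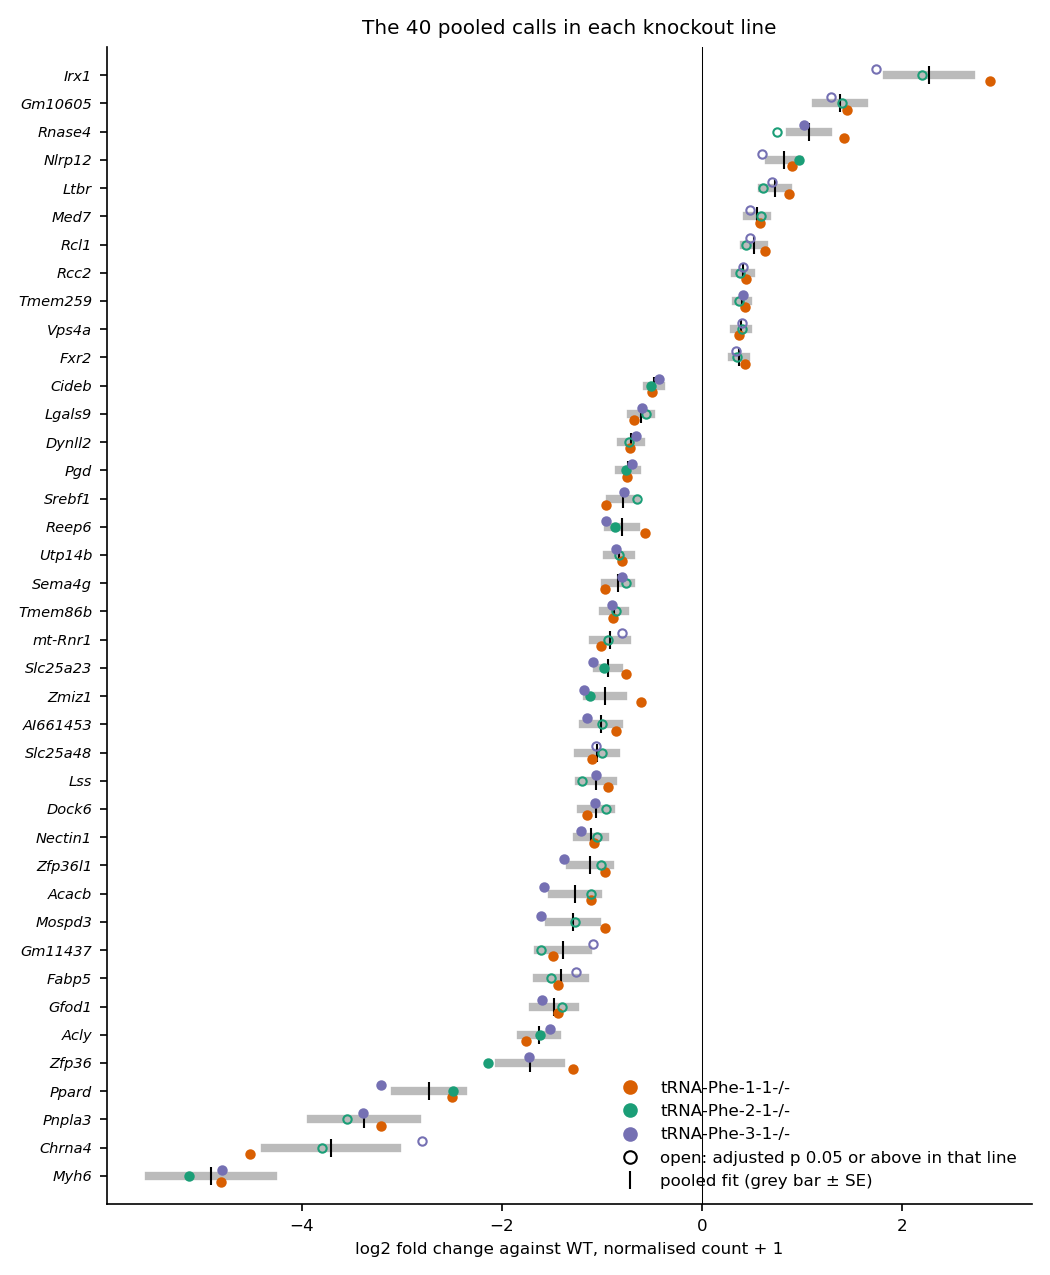
Log2 fold change against WT (x axis, normalised count + 1) of the 40 genes called in the pooled comparison (y axis), with the pooled value as a tick on a grey bar of ± SE and the 3 knockout lines as coloured circles, filled where the line passed the threshold. The circles of all 3 lines lie on the same side of 0 for every gene. They could not do otherwise, since in all 40 every knockout sample lay on one side of the WT samples. Those of tRNA-Phe-2-1-/- are filled for 10 of the 40.

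Acly codes for ATP-citrate lyase, which makes the cytosolic acetyl-CoA from which fatty acids and cholesterol are built (chr11:100476352-100528000, GRCm38.p6, as are all positions that follow). Its normalised count was 44519, 36709 and 45800 in WT A, B and C. In the knockouts it was 10062, 11852 and 16281 for tRNA-Phe-1-1-/-, 11766, 17543 and 12407 for tRNA-Phe-2-1-/-, and 19609, 14057 and 11481 for tRNA-Phe-3-1-/-. The highest knockout sample stayed far under the lowest WT sample. The pooled log2 fold change was -1.63 ± 0.18 (SE), with an adjusted p of 0.00696 from limma. The lines gave -1.76, -1.62 and -1.52 in the same order, and did not differ past the threshold (F-test among the lines, adjusted p = 0.730).

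Pgd codes for 6-phosphogluconate dehydrogenase, a step of the pentose phosphate pathway that yields NADPH (chr4:149149991-149166705). WT samples A, B and C had 1408, 1155 and 1369 normalised counts. The tRNA-Phe-1-1-/- samples had 758, 828 and 744, the tRNA-Phe-2-1-/- samples 757, 787 and 767, and the tRNA-Phe-3-1-/- samples 916, 675 and 833. All 9 knockout values were below the WT range and close to each other. The pooled log2 fold change was -0.74 ± 0.09 with an adjusted p of 0.00696 from limma, and the line values were -0.75, -0.76 and -0.70.

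Ppard, which codes for the fatty acid-sensing nuclear receptor PPAR-delta (chr17:28232754-28301469), showed the deepest fall among the shared genes with a mean of at least 50. Its counts were 675, 997 and 968 in WT. They were 134, 168 and 159 in tRNA-Phe-1-1-/-, 253, 132 and 108 in tRNA-Phe-2-1-/-, and 165, 67.5 and 71.4 in tRNA-Phe-3-1-/-. No knockout sample came near the WT samples. The log2 fold change was -2.73 ± 0.34 (adjusted p = 0.00696, limma).

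A pair of genes with roles in mitochondrial transport and in lipid droplets followed. Slc25a23, a mitochondrial carrier of ATP-magnesium and phosphate (chr17:57043711-57059909), had 3812, 4002 and 3984 counts in WT and 1612 to 2514 in the knockouts. Its log2 fold change was -0.94 ± 0.11 (adjusted p = 0.00696, limma). Cideb, a lipid droplet protein of hepatocytes that serves the loading of very-low-density lipoprotein (chr14:55754052-55758424), had 2559, 2565 and 2585 counts in WT and 1627 to 2023 in the knockouts. The fall of Cideb was the smallest of the shared genes, at -0.48 ± 0.07 (adjusted p = 0.0149, limma), beside a very narrow spread of the WT samples.

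The remaining shared genes with a mean of at least 50 were Reep6, Zfp36 and Zmiz1, each with an adjusted p of 0.0490 from limma. Reep6 shapes the endoplasmic reticulum (chr10:80329997-80336441). It had 4502, 5482 and 5163 counts in WT and 2161 to 4045 in the knockouts, and its log2 fold change was -0.80 ± 0.14. Zfp36 codes for tristetraprolin, which binds AU-rich messenger RNAs and speeds their decay (chr7:28376784-28379228). Its WT values of 1495, 1114 and 2972 were spread widely, the knockout values were 291 to 844, and the log2 fold change was -1.72 ± 0.31. Zmiz1, a transcription cofactor (chr14:25457875-25666743), had 1406, 1514 and 2077 counts in WT and 653 to 1109 in the knockouts, with a log2 fold change of -0.97 ± 0.18.

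Zmiz1 was also one of the 2 calls that differed in size among the lines. Its log2 fold change was -0.61 in tRNA-Phe-1-1-/-, -1.12 in tRNA-Phe-2-1-/- and -1.18 in tRNA-Phe-3-1-/- (F-test adjusted p = 0.0272, limma). The counts of 1020 to 1109 in tRNA-Phe-1-1-/- lay above those of the other two lines, which were 653 to 828. The other was Rnase4, a secreted ribonuclease, with line values of 1.42, 0.75 and 1.02 (F-test adjusted p = 0.0199, limma). Over all genes tested the F-test passed for 15.3%. Differences between lines count as spread in the pooled fit, so genes with large ones were less able to enter the 40. The next lowest F-test values among the calls were those of Slc25a23 (adjusted p = 0.110) and Reep6 (0.121, both limma), with the smaller fall again in tRNA-Phe-1-1-/-.

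**Figure D2:**
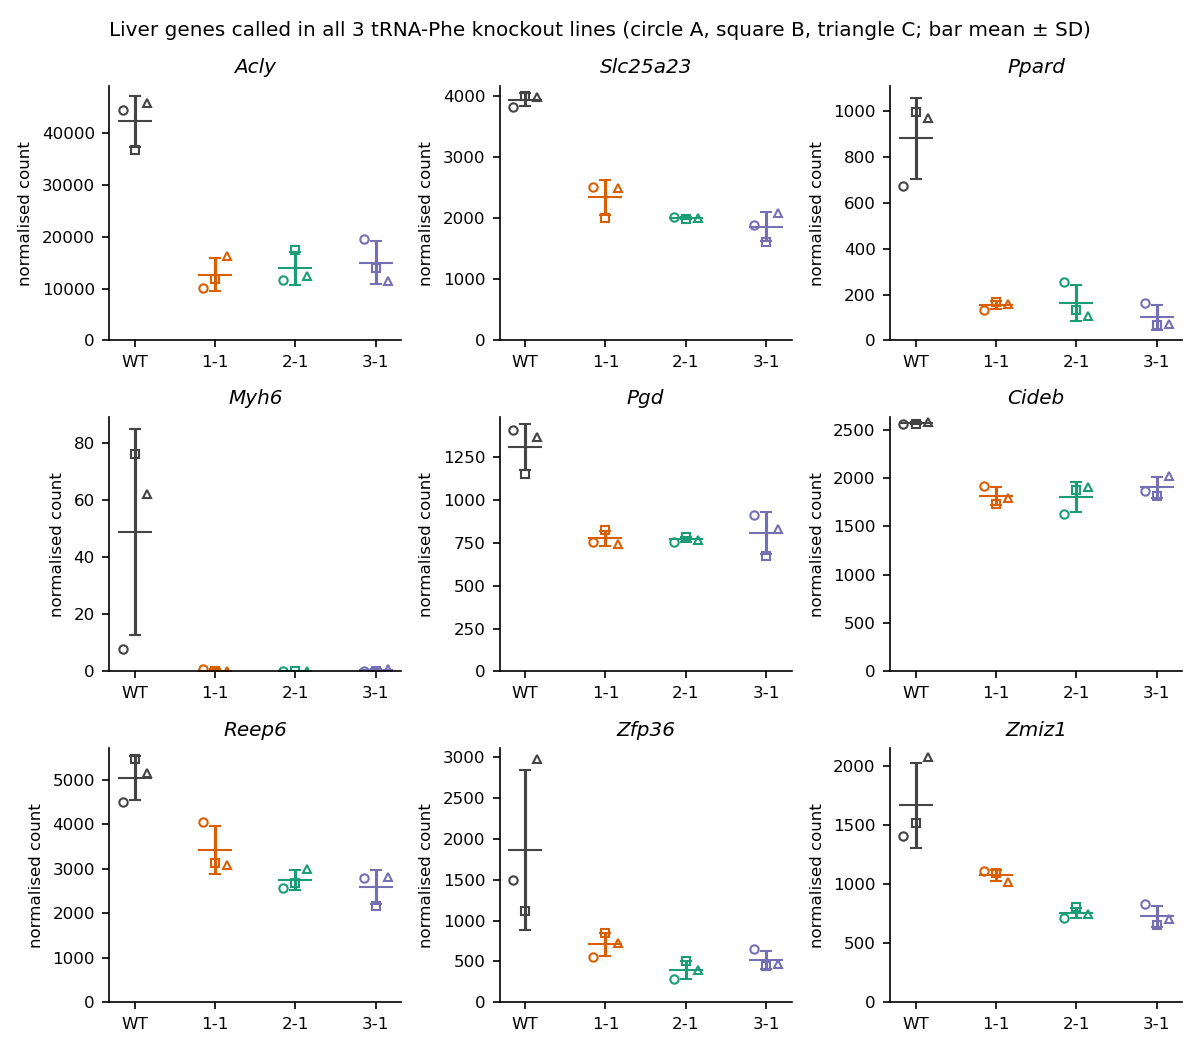
Normalised count (y axis, from 0) of the 9 genes called in all 3 lines in WT, livers and the 3 knockout lines (x axis); circles, squares and triangles are replicates A, B and C, and bars are the mean ± SD (n = 3). Every knockout sample lies below the 3 WT samples in each panel, and Myh6 is at or near 0 in all 9 knockouts.

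Myh6, the ninth shared gene, codes for the alpha myosin heavy chain of heart muscle (chr14:54941921-54968017) and had the largest change of the 40. It had 7.82, 76.1 and 62.3 normalised counts in WT A, B and C, and at most 1.01 in any knockout liver. These were 133 reads in 3 WT samples against 2 reads in 9 knockout samples, of which 7 had none. The ratio of the summed reads, scaled to the total reads, was 220 (95% exact interval 59.7 to 1834, counting error only). Other heart muscle genes were looked at after this value had been seen. Myl2 had 3.91, 5.93 and 9.08 counts in WT livers and was at 0 in all 9 knockouts. Tnni3 had at least 7.82 counts in each WT liver and 1.88 to 7.61 in the knockouts. Actc1 (2.93 to 15.6 in WT, 0 to 5.53 in knockouts), Myl7 (3.91 to 19.5 and 0.960 to 5.53) and Tnnt2 (5.86 to 14.3 and 3.38 to 32.2) overlapped. In the brain, where 0.775% of genes were lower in every knockout than in every WT sample, Myh6 was again among these, at 481, 28.5 and 18.1 in WT against 0 to 3.44 in the knockouts, and Actc1 was at 76.1, 2.11 and 3.39 against 0 to 1.15. The other 4 overlapped in the brain, with Myl2 at 6.77 to 52.2 in WT and 2.16 to 28.8 in knockouts, Tnni3 at 4.51 to 41.9 and 5.73 to 24.4, Tnnt2 at 75.6 to 144 and 66.2 to 106, and Myl7 at 0 to 2.57 and 0 to 2.00. Whether heart tissue was carried into the WT samples was not tested.

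Among the gene lists, which were chosen with earlier results of these data known, fatty acid synthesis carried the most pooled calls. In the liver SREBP-1c, made from Srebf1, switches on enzymes that turn acetyl-CoA into fatty acids when insulin is high. Of the 22 genes of this list 4 were lower (Acly, Acacb, Srebf1 and Pnpla3) and 0 were higher, beside 0.183% and 0.0694% of all genes. The median log2 fold change was -0.84 beside 0.00 for all genes tested. All 4 lower genes also passed in both tRNA-Phe-1-1-/- and the tRNA-Phe-3-1-/- line, and Acly alone in tRNA-Phe-2-1-/-. Line by line, 12 members were lower and 1 higher in tRNA-Phe-1-1-/- (9.08% and 8.27% of all genes). In tRNA-Phe-2-1-/- 1 was lower (0.120% of all genes) and in tRNA-Phe-3-1-/- 5 were lower (0.694%). The medians were -0.94, -0.70 and -0.84 in the same order.

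Srebf1 (chr11:60199084-60224186) had 16826, 13746 and 16062 counts in WT and 6331 to 10488 in the knockouts. The groups were well apart, and the log2 fold change was -0.79 ± 0.13 (adjusted p = 0.0281, limma). Pnpla3, a lipid droplet protein and known target of SREBP-1c (chr15:84167776-84189521), had 591, 216 and 352 counts in WT and 12.2 to 86.0 in the knockouts. It fell by 3.38 ± 0.53 on the log2 scale (adjusted p = 0.0241, limma). Acacb, the acetyl-CoA carboxylase at the mitochondrial surface (chr5:114146321-114250761), had 13688, 9845 and 13528 counts in WT and 3319 to 8043 in the knockouts, and changed by -1.27 ± 0.23 on the log2 scale (adjusted p = 0.0490, limma).

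Other members had fold changes as large, and did not pass. These lie outside the naming rule and are given as enzymes known for this pathway. Fasn, the fatty acid synthase, had 152487, 47540 and 84041 counts in WT and 20684 to 51740 in the knockouts (log2 fold change -1.40 ± 0.34, adjusted p = 0.105, limma), so that WT B lay within the knockout range. Scd1, the stearoyl-CoA desaturase, had 556287 to 698456 counts in WT and 101350 to 471615 in the knockouts (-1.38 ± 0.39, adjusted p = 0.164, limma). Acaca, the cytosolic acetyl-CoA carboxylase, had a small value of -0.20 ± 0.26 (adjusted p = 0.772, limma). The list's mean deviation per sample from the 12-sample average, on the log2 scale, was 0.96, 0.29 and 0.59 in WT A, B and C and -0.50 to 0.42 in the knockouts. The highest knockout, tRNA-Phe-1-1-/- C, lay within the WT range.

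Of the 25 genes of cholesterol synthesis and uptake 1 was lower and 0 were higher, beside 0.183% and 0.0694% of all genes. The lower gene was Lss, lanosterol synthase, which closes the sterol ring (chr10:76531565-76557139), with 5790, 4854 and 8460 counts in WT and 2263 to 3785 in the knockouts (log2 fold change -1.06 ± 0.17, adjusted p = 0.0260, limma). The fold change was below 0 for 24 of the 25 genes, beside 7901 of all 15856 genes tested. The list median was -0.33, or -0.23 without WT C and -0.42 without WT B. The list's mean deviation per sample was 0.37, 0.08 and 0.49 in WT A, B and C and -0.23 to 0.17 in the knockouts, so that the groups overlapped. By adjusted p, Insig1, which holds SREBP in the endoplasmic reticulum, came next at -0.86 ± 0.17 (adjusted p = 0.0617), followed by Dhcr7, the last reductase of cholesterol synthesis, at -0.89 ± 0.18 (adjusted p = 0.0663, both limma).

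**Figure D3:**
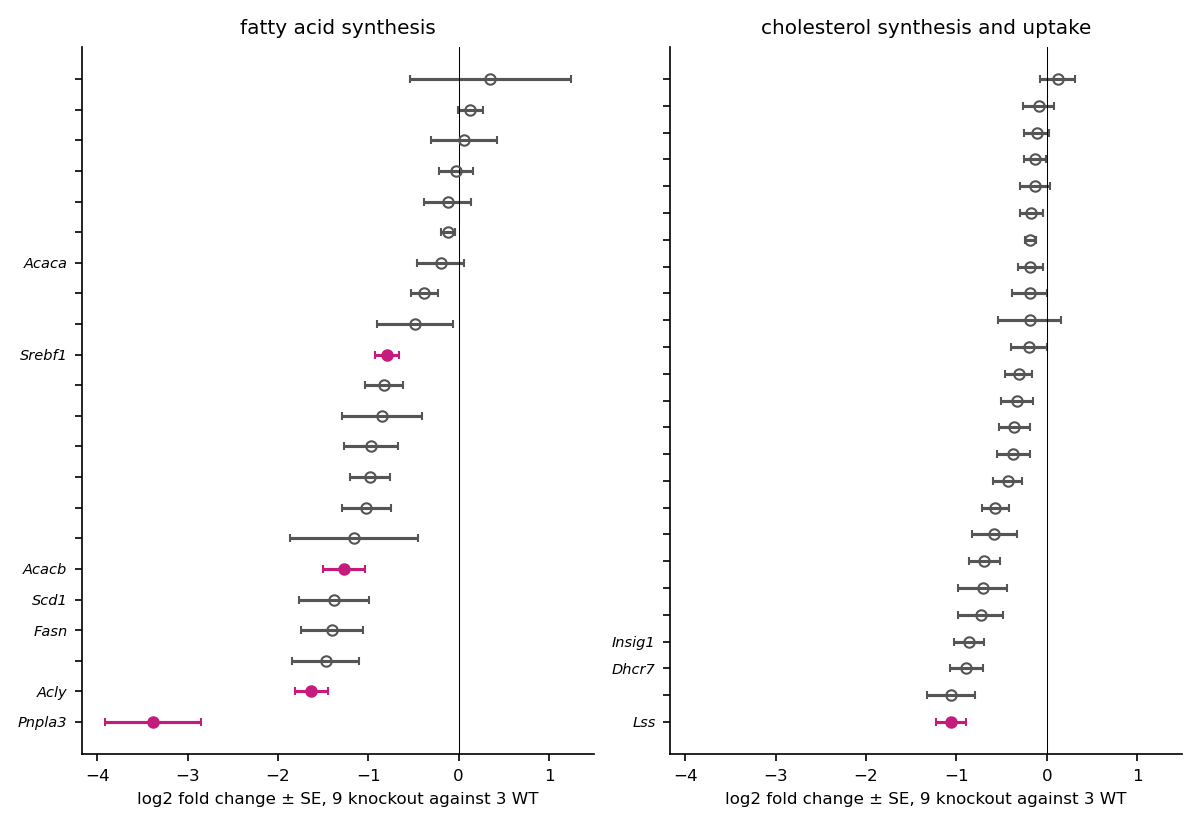
Pooled log2 fold change ± SE (x axis, 9 knockout against 3 WT livers) of the 22 fatty acid synthesis genes (left) and the 25 cholesterol genes (right), filled where the gene passed the threshold, with one row per gene and labels on the genes described in the text. In the left panel 4 genes are filled and 19 lie below 0, and in the right panel 1 is filled and 24 lie below 0. Of all 15856 genes tested, 7901 lie below 0.

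The liver clock alternates between genes that peak with Bmal1 and genes that peak with Dbp, and many lipid genes cycle over the day. The mean deviation of the 6 genes in phase with Bmal1 was 0.90, 0.98 and 0.96 in WT A, B and C and -1.32 to 0.66 in the knockouts. The groups did not overlap, although no member passed in the pooled fit. The 13 genes in phase with Dbp were at -1.19 to -0.55 in WT and -1.24 to 2.06 in the knockouts, with 0 pooled calls. The tRNA-Phe-2-1-/- livers were at -0.01 to 0.66 for the Bmal1 list and, overlapping WT, at -1.24 to -0.40 for the Dbp list. Line by line, 5 of the 6 Bmal1-phase genes were lower in tRNA-Phe-1-1-/- (9.08% of all genes). In the same line 8 of the 13 Dbp-phase genes were higher (8.27% of all genes), and in the other lines 0 of either list passed. With tRNA-Phe-1-1-/- first and tRNA-Phe-3-1-/- last, the line medians were -1.04, -0.51 and -1.11 for the Bmal1 list. Those of the Dbp list were 1.93, -0.02 and 1.31. Among single genes, Nr1d2 (log2 fold change 1.29 ± 0.34, adjusted p = 0.135), Dbp (3.41 ± 1.22, 0.243), Tef (1.14 ± 0.51, 0.336), Cry1 (-0.95 ± 0.25, 0.130), Npas2 (-3.26 ± 1.05, 0.200) and Nfil3 (-0.86 ± 0.28, 0.204) did not pass in the pooled limma fit. The hour of tissue collection is not given in the sources used here, and its part in the lipid results was not tested.

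Fatty acid oxidation and PPAR targets held 1 call among 27 genes (0.252% of all genes were called), which was Ppard itself. Pdk4, which turns glucose carbon away from oxidation, was at -1.91 ± 0.55 (adjusted p = 0.166, limma) with values of -2.95, -0.75 and -2.04 in the lines. Cpt1a, which admits fatty acids to mitochondria, was at 0.44 ± 0.13 (adjusted p = 0.171, limma). Fabp5, a fatty acid carrier outside the lists, had 3989, 2902 and 4321 counts in WT and 966 to 2159 in the knockouts and fell by 1.41 ± 0.24 on the log2 scale (adjusted p = 0.0412, limma). Except for Rnase4, Fabp5 and the other called genes named in the following 2 paragraphs lie outside the naming rule and were chosen after their values were seen.

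The rest of the lower genes were varied. Chrna4, a subunit of the neuronal nicotinic acetylcholine receptor, had 695, 566 and 1611 counts in WT and 12.2 to 184 in the knockouts (log2 fold change -3.71 ± 0.66, adjusted p = 0.0490, limma). Nectin1, a cell adhesion protein, had 1655 to 1982 counts in WT and 659 to 1151 in the knockouts (-1.11 ± 0.14, adjusted p = 0.00696, limma). The lysoplasmalogenase gene Tmem86b was at 741 to 975 and 428 to 563 (-0.88 ± 0.11, adjusted p = 0.00696, limma). Also lower were Lgals9 (galectin-9), Dynll2 (a dynein light chain), Sema4g (a semaphorin), Dock6 (a guanine nucleotide exchange factor), Gfod1, Mospd3, Slc25a48, AI661453 and Gm11437, with log2 fold changes of -0.61 to -1.48. Utp14b starts at the same position as Acsl3 in the annotation, so that the division of reads between them is uncertain. Utp14b was at -0.83 ± 0.12 (adjusted p = 0.0149) and Acsl3 at -0.57 ± 0.18 (adjusted p = 0.197, both limma). The mitochondrial 12S ribosomal RNA mt-Rnr1 had 67710, 110674 and 130130 counts in WT and 44817 to 59788 in the knockouts. Both mitochondrial ribosomal RNAs together took 1.56 to 2.42% of the reads in WT and 1.22 to 1.61% in the knockouts.

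Of the 11 higher genes, Rnase4 was the most abundant, with 12205, 13322 and 11780 counts in WT and 18625 to 37745 in the knockouts (chr14:51091077-51106151, log2 fold change 1.07 ± 0.19, adjusted p = 0.0490, limma). Rnase4 shares its annotated start with Ang, which codes for angiogenin, and reads of their common part can be divided between them. Ang had 2257 to 2427 counts in WT and 3103 to 10682 in the knockouts, but did not pass (1.00 ± 0.32, adjusted p = 0.193, limma). Ltbr, the lymphotoxin beta receptor, rose by 0.73 ± 0.13 and Nlrp12, an inflammasome-family gene, by 0.82 ± 0.15. Irx1, a homeobox gene, rested on few reads, with 5 in the 3 WT and 127 in the 9 knockout samples (ratio of scaled reads 7.68, 95% exact interval 3.21 to 24.1). The other rises were of 0.37 to 0.55 on the log2 scale in Tmem259, Fxr2, Med7, Rcl1, Vps4a and Rcc2, and of 1.38 in the long non-coding RNA Gm10605. They had narrow spreads, such as 1060 to 1113 WT counts of Fxr2, a relative of the fragile X protein, against 1328 to 1575.

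The immediate early genes held 2 calls among 23 genes tested (0.252% of all genes were called), Zfp36 and Zfp36l1, which are related decay factors. Zfp36l1 had 3088, 2917 and 4045 counts in WT and 961 to 2279 in the knockouts (log2 fold change -1.12 ± 0.20, adjusted p = 0.0490, limma). Mcl1, a survival factor of the same list, was at 0.27 ± 0.08 (adjusted p = 0.165, limma). The list median was -0.16, with line medians of 0.15, -0.37 and -0.24, and it rested on single WT samples, being -0.00 without WT C and -0.33 without WT B. Of 20 chromatin and transcription cofactors, 19 had a fold change below 0, beside 7901 of all 15856 genes tested. This list too was chosen with earlier results of these data known. The median of the cofactors was -0.23, or -0.14 without WT C, and 1, Zmiz1, passed. The line medians were -0.11, -0.16 and -0.33. The mean deviation of the list per sample was 0.12, 0.20 and 0.36 in WT A, B and C and -0.28 to 0.19 in the knockouts, so the groups overlapped. Arid1a, a subunit of the SWI/SNF remodelling complex, was at -0.57 ± 0.12 (adjusted p = 0.0771, limma).

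Genes that handle phenylalanine and its tRNA did not pass in the pooled comparison. Phenylalanyl-tRNA synthetase charges tRNA-Phe and has subunits from Farsa and Farsb. Farsa had 776, 605 and 667 counts in WT and 620 to 901 in the knockouts (log2 fold change 0.14 ± 0.12, adjusted p = 0.626, limma). Farsb had 1060 to 1276 in WT and 1048 to 1307 in the knockouts (-0.01 ± 0.08, adjusted p = 0.961, limma). The 20 cytosolic aminoacyl-tRNA synthetases held 0 pooled calls, with a median of 0.06. In tRNA-Phe-1-1-/- 8 of them were higher and 1 lower (median 0.21), beside 8.27% and 9.08% of all genes, and in the other lines 0 passed. The lowest pooled adjusted p-values were those of Sars1, at 0.33 ± 0.07 (adjusted p = 0.0850), Tars1 at -0.48 ± 0.14 (0.170) and Aars1 at 0.27 ± 0.12 (0.324, all limma). The list of 10 genes of phenylalanine and tyrosine catabolism had 0 pooled calls and a median of -0.08. In tRNA-Phe-1-1-/- 1 member passed as higher and 3 as lower (8.27% and 9.08% of all genes), and in the other lines 0 passed. In the pooled fit Qdpr, dihydropteridine reductase, was at -0.49 ± 0.14 (adjusted p = 0.148) and Pcbd1, which serves the same pterin cycle, at -0.17 ± 0.08 (0.374, both limma).

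The other lists also held 0 pooled calls, and several had a large median in 1 line only. The acute phase response (20 genes) had line medians of 1.33, 0.01 and -0.03, glucocorticoid response (16 genes) 1.19, -0.62 and -0.38, and ER chaperones (20 genes) 0.74, 0.13 and -0.12, with tRNA-Phe-1-1-/- first and tRNA-Phe-3-1-/- last. In tRNA-Phe-1-1-/- 17 acute phase, 10 glucocorticoid and 13 ER chaperone genes passed as higher, beside 8.27% of all genes. In the other lines 0 members of these lists passed. Blood cell markers also moved in tRNA-Phe-1-1-/-, where 8.27% of all genes were higher and 9.08% lower. There all 3 tested neutrophil markers, of 6 listed, were higher (median 2.52). Lower were 3 of 5 tested B and T cell markers, of 8 listed (-2.29), and 5 of 6 erythroid markers (-0.87). In the other lines 0 of these markers passed. The part of these markers in the list values of tRNA-Phe-1-1-/- was not tested. Cell cycle genes (22) had line medians of 0.06, 0.04 and 1.07, and growth hormone and male-biased genes (13) -0.09, 0.91 and 0.19. The pericentral hepatocyte genes (14) had medians of one sign in all lines, at 0.36, 0.58 and 0.68. Their mean deviations per sample overlapped, at -0.75 to -0.03 in WT and -0.43 to 0.64 in the knockouts. The pooled median of this list was 0.51, but 0.34 without WT B and 0.71 without WT A. Of its members, Slc1a2, a glutamate transporter, was at 1.19 ± 0.24 (adjusted p = 0.0727), Lhpp at 0.76 ± 0.18 (0.101) and Oat, ornithine aminotransferase, at 0.81 ± 0.21 (0.137, all limma). The periportal genes (13) also had line medians of one sign, at -0.33, -0.40 and -0.08. The 18 genes of the Atf4 response, with a pooled median of 0.09, and the 23 translation and mTORC1 genes, with 0.05, were close to all genes tested. In the latter list Larp1, which binds messenger RNAs of the translation machinery, was at -0.59 ± 0.13 (adjusted p = 0.0843, limma), and glucose and insulin genes (23) had a pooled median of -0.18 (-0.09 without WT C). Other pooled medians that moved by more than 1.5 times without 1 WT sample included those of glucocorticoid response (0.23, but -0.01 without WT B and 0.47 without WT A), ER chaperones (0.19, but 0.10 without WT B), periportal genes (-0.23, but -0.37 without WT A and -0.15 without WT B) and growth hormone and male-biased genes (0.21, but 0.11 without WT B and 0.10 without WT C).

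The members of these lists with the lowest adjusted p are given by role, and none of them passed in the pooled limma fit. Among acute phase genes, which the liver secretes in inflammation, Orm3 was at 2.95 ± 0.78 (adjusted p = 0.135), Orm2 at 1.36 ± 0.79 (0.452) and Serpina3n at 0.81 ± 0.48 (0.462). Serpina3n had 4364 to 6067 counts in WT, 16136 to 23814 in tRNA-Phe-1-1-/- and 5039 to 9272 in the other lines, so that its pooled value is mostly that of 1 line. Among glucocorticoid targets Klf9 was at 0.39 ± 0.12 (adjusted p = 0.195), Cdkn1a at -1.35 ± 0.66 (0.375) and Errfi1 at 0.80 ± 0.40 (0.384). In the unfolded protein response of the ER, Xbp1, its transcription factor, was at 0.38 ± 0.14 (adjusted p = 0.253), Ero1b at 0.56 ± 0.28 (0.383) and Dnajc3 at 0.41 ± 0.22 (0.415). For the Atf4 response to amino acid shortage, Eif4ebp1 was at 0.24 ± 0.08 (adjusted p = 0.216), Ppp1r15a at 0.64 ± 0.22 (0.224) and Cebpb at 1.12 ± 0.43 (0.272). Cebpb had 484 to 764 counts in WT and 2667 to 2678 in tRNA-Phe-1-1-/-. Eif2ak4 codes for GCN2, the kinase that senses uncharged tRNA, and was at -0.28 ± 0.09 (adjusted p = 0.216), beside Eif4ebp2 at -0.63 ± 0.17 (0.145).

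In glucose and insulin metabolism Irs2, the insulin receptor substrate, was at -0.92 ± 0.26 (adjusted p = 0.165), Ppp1r3b, a glycogen-targeting subunit, at -0.84 ± 0.33 (0.275) and Ppargc1a, a coactivator of fasting genes, at -0.69 ± 0.30 (0.323). Of the genes under growth hormone and sex, Cyp7b1, an oxysterol hydroxylase, was at 2.02 ± 0.47 (adjusted p = 0.101), Mup20, a urinary protein, at 1.13 ± 0.34 (0.178) and Cish, an inhibitor of cytokine signals, at 1.90 ± 0.75 (0.281). Periportal Hal, histidine ammonia-lyase, was at -0.83 ± 0.33 (adjusted p = 0.276), Ass1 of the urea cycle at -0.53 ± 0.25 (0.344) and Etnppl at -1.26 ± 0.61 (0.366). In the cell cycle list Kif11, a spindle motor, was at 0.76 ± 0.31 (adjusted p = 0.296), Ube2c at 1.32 ± 0.55 (0.302) and Pcna, the replication clamp, at 0.20 ± 0.09 (0.340).

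**Figure D4:**
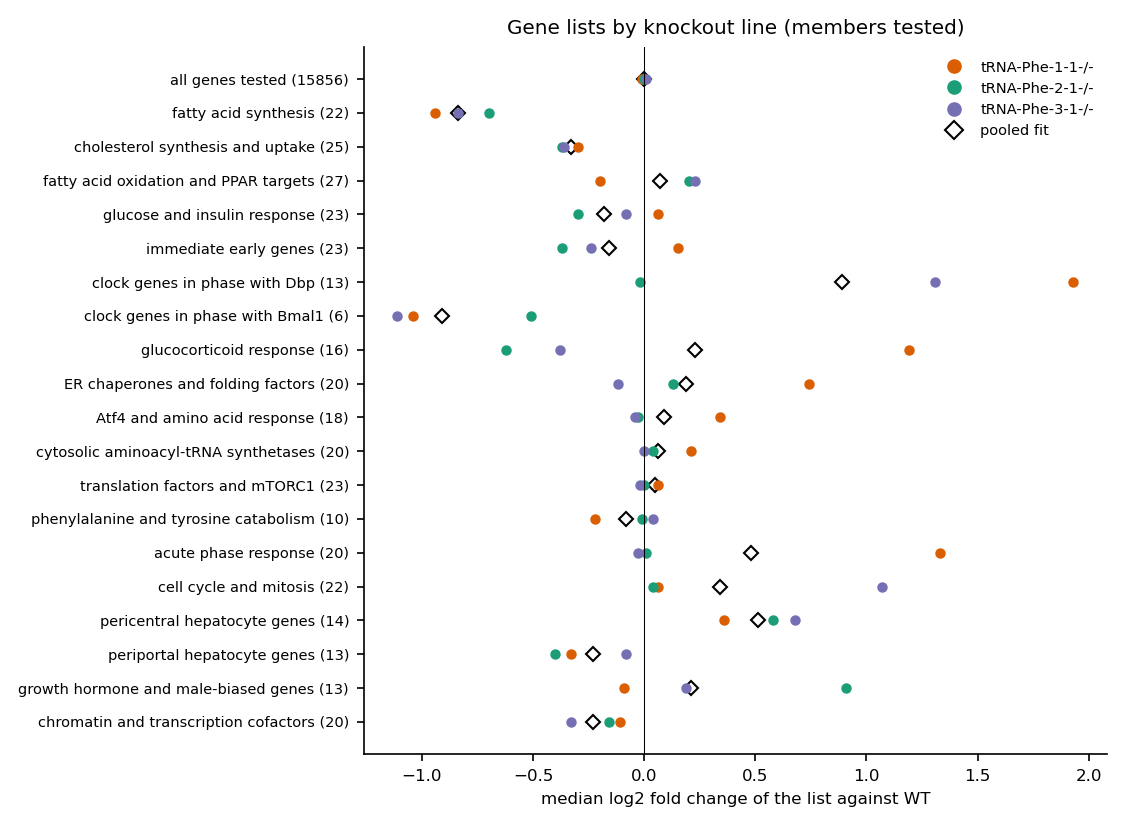
Median log2 fold change against WT (x axis) of each gene list, with the number of members tested in brackets (y axis), for the pooled fit (diamonds) and for the 3 lines (circles). Fatty acid synthesis lies between -0.94 and -0.70 in every line, while the acute phase and glucocorticoid lists are above 1 only in tRNA-Phe-1-1-/-.

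The 40 calls depended on the 3 WT samples. Without WT A, 14 of the 40 were still called, without WT B 2 (Acly and Pgd) and without WT C none (of all genes, 0.114%, 0.0126% and 0 were called), so that 0 of the 40 were called in all 3 refits of limma. Acly and Pgd were lost only without WT C (adjusted p = 0.103 and 0.115, against 0.0248 and 0.0482 without WT A and 0.0344 for both without WT B), 12 were kept in 1 refit and 26 in none. Without WT C, limma called 0 of all 15856 genes at an adjusted p of 0.05 and 1105 (6.97%) at an unadjusted p under 0.05, beside 2271 (14.3%) with all samples, 2188 (13.8%) without WT A and 1648 (10.4%) without WT B. The other tools kept more of the 40 without WT C, 4 in edgeR and 36 in DESeq2, both on the recovered reads.

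The sizes of the changes were held better than the calls. Without WT C the log2 fold change of the 40 genes was 76.7 to 108% of the full value (median 91.6%). Without WT B it was 87.0 to 118% and without WT A 89.2 to 130%. All 40 had an unadjusted p under 0.05 in each limma refit, but they had been chosen on these same samples, which favours this. Their sign could not change, since every knockout sample lay on one side of all WT samples. The standard error grew by a like amount in each refit, to a median of 120% of its full value without WT A, 121% without WT B and 119% without WT C. WT C was the WT sample farthest from the knockout mean in 26 of the 40 genes, beside 41.5% of all genes tested, and WT A the nearest in 24. Among the shared genes this was plain for Zfp36, where WT C had 2972 counts and WT A and B had 1495 and 1114, and for Zmiz1, with 2077 against 1406 and 1514. For Acly, Pgd, Slc25a23 and Cideb the WT samples were close to each other.

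**Figure D5:**
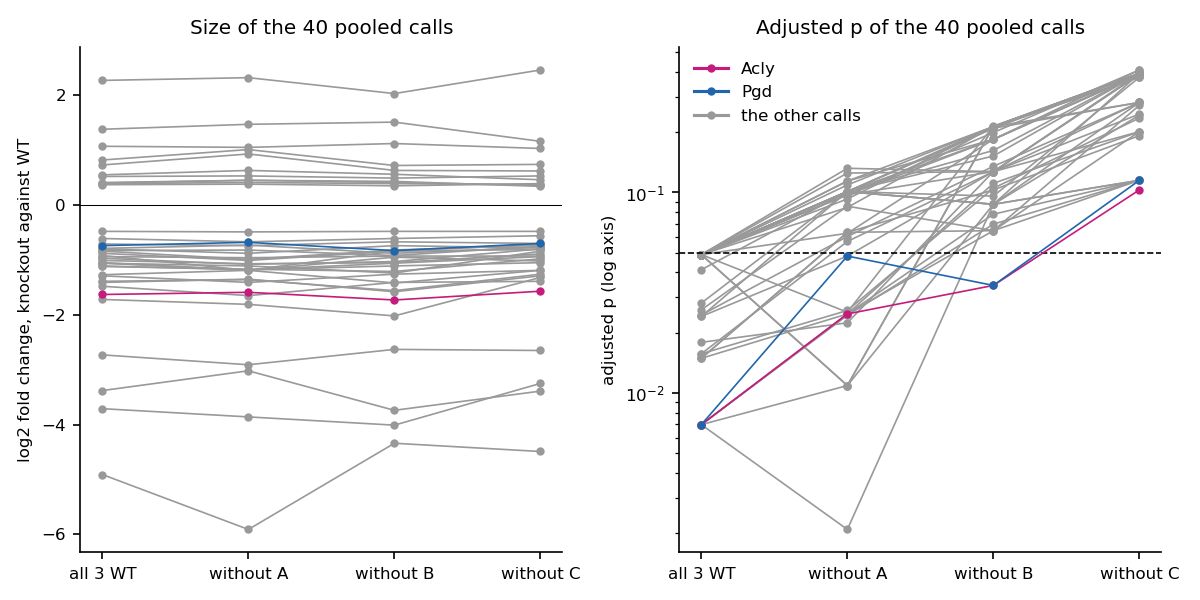
Log2 fold change (left, y axis) and adjusted p (right, y axis, log scale, dashed line at 0.05) of the 40 pooled calls with all 3 WT samples and without WT A, B or C (x axis); each line is a gene, with Acly and Pgd coloured. The sizes change little, while only Acly and Pgd stay under the dashed line without WT B and no gene does without WT C.

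The calls also depended on the lines. Without the tRNA-Phe-1-1-/- line 238 genes were called (170 lower, 68 higher), among them all 40, whereas without the tRNA-Phe-2-1-/- line limma called none (2096 at an unadjusted p under 0.05) and without the tRNA-Phe-3-1-/- line 19. When the 3 lines had a mean each in the fit, and differences between them no longer counted as spread, 641 genes were called (401 lower, 240 higher), again with all 40.

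In the brain of the same genotypes the pooled comparison gave 0 calls in 19228 genes tested with limma, 1382 at an unadjusted p under 0.05 (7.19%), 2 calls in edgeR and 47 in DESeq2. The 2 brain calls of edgeR were Cfd and Myh6 (Myh6 log2 fold change -8.03, adjusted p = 0.0163, edgeR). Of the 40 liver genes, 36 were tested in the brain and 24 had a fold change of the same sign there. An unadjusted p under 0.05 was reached in the brain by 4 of them, Myh6 (-5.55 ± 0.84), Zmiz1, Fxr2 and Rcc2. Acly was at 0.18 (adjusted p = 0.698), Ppard at -0.12 (0.891) and Pgd at 0.01 (0.984, all limma) in the brain. The tissues were normalised separately and were not tested against each other.

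Promoters of the shared genes were searched for sites of factors that the lists bring to mind, since these genes moved together. The windows run from 250 bases before to 50 after the start (RefSeq, GRCm38.p6), were present for 8 of the 9 shared genes and were read on both strands. The sterol element TCACNCCAC was found in 0 of the 8 (1.24% of 32851 promoters), the E-box CACGTG in 0 (7.15%), the D-box TTANGTAA in 0 (2.32%) and the PPAR response element, a pair of AGGTCA repeats with any 1 base between them, in 0 (0.0396%). These letters were absent from these windows. Among the 31 called genes with a window, the E-box was present in Ltbr and Utp14b, which are shown with the E-box in capitals.
Ltbr, chr6:125313993-125314022, minus strand: gcctgcagctctCACGTGctttcccggcca
Utp14b, chr1:78658365-78658394, plus strand: cgcgggcgcgggCACGTGggtggggtcgtc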

How the data were processed

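Total RNA was sequenced by the authors (Illumina NovaSeq), and reads were trimmed with Trim Galore and cutadapt, aligned with STAR to GRCm38.p6, quantified with Salmon in strand-aware mode with bias corrections, and scaled with DESeq2 in each tissue. The deposited normalised counts (signal) are estimated reads divided by 1 size factor per sample, which assumes that most genes did not change. All values were whole multiples of 1 step (tolerance 0.001 reads), which gave back 100% of them as whole reads. Salmon divides reads between overlapping transcripts. Deposited comparison tables with the authors' own means, log2 fold changes, errors and s-values were not used.

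Groups were taken from the sample titles. The 9 knockout and 3 WT livers were fitted on log2(normalised count + 1) with limma 3.58.1 (R 4.3.3, variance trend) for genes with a mean of at least 10. P-values are two-sided and adjusted by Benjamini-Hochberg over all genes tested, with a threshold of 0.05. Fold changes on this scale understate low genes. Lines were fitted in a 4-genotype model, with a moderated F-test among them. Sums of marker genes are of normalised counts. Members and gene lists were chosen with earlier results of these data known, and no list was tested. Named genes were protein-coding calls with a mean of at least 50 that were shared in 3 lines, rested on 1 WT sample or had the 4 lowest F-test values, the 3 members of each list with the lowest adjusted p, and Farsa and Farsb. Some genes that the rule names are not reported here. Calls kept without each WT sample would also have been named, but there were none. Symbols came from GENCODE (93.2% of 55434 Ensembl entries matched). Count tests (edgeR 4.0.16, DESeq2 1.42.0) were run on the recovered reads as alternatives, beside other pseudocounts (0.1, 5), filters (none, 50), normalisations, variance priors, weights, models, a replicate block and left-out samples. The procedure was tested on simulated counts. Intervals of read ratios are exact and cover counting error only. No replicates agreed within sampling noise. The samples held 32276896 to 51584522 reads.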

Additional observations from a re-analysis of the deposited data

Results flagged for a closer look

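In 91 genes named by the rule or called in the pooled comparison, the 9 knockout samples were searched for a sample far from the others (gap to the nearest sample over the whole range above Dixon's critical value for 9 samples). Chance gives such a sample in about 1 of 20 groups, and 3 genes had one. Cdkn1a, a cell cycle inhibitor, was at 316 normalised counts in tRNA-Phe-1-1-/- B and at 77.8 in the next sample (ratio 0.796). Ube2c, a mitotic ubiquitin enzyme, was at 41.2 in tRNA-Phe-3-1-/- C and at 20.2 in the next (0.571). Vps4a, one of the higher genes, was at 841 in tRNA-Phe-2-1-/- A and at 769 in the next (0.529).

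The size of the change differed among the 3 lines in 13 of the 91 genes (moderated F-test of limma, adjusted over all genes tested). The same test passed for 15.3% of all genes tested, so these 13 do not set the named genes apart. Among the calls these were Rnase4 (adjusted p = 0.0199) and Zmiz1 (0.0272). The others were not called in the pooled comparison. Serpina3n (adjusted p = 0.000595), Cebpb (0.00126), Dnajc3 (0.00158) and Orm2 (0.0148) had their largest value in tRNA-Phe-1-1-/-, at 1.95, 2.09, 0.88 and 3.00 on the log2 scale. Pdk4 (0.00206), Etnppl (0.00863), Npas2 (0.0130) and Tars1 (0.0402) had their deepest fall in that line, and Dbp (0.0314) and Tef (0.0287) their largest rise, all by the F-test of limma. Eif4ebp2 (0.00316), which restrains translation, was lower in tRNA-Phe-2-1-/- (-0.84) and tRNA-Phe-3-1-/- (-0.80) than in tRNA-Phe-1-1-/- (-0.24), as was Zmiz1.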

How the results depend on the processing

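The pooled count of 40 stayed at 32 to 55 with other pseudocounts, filters, normalisations and with edgeR. It was 15 without a variance trend, 565 with array weights, 641 in the 4-genotype fit and 501 in DESeq2. It was 238 without the tRNA-Phe-1-1-/- line, 0 without tRNA-Phe-2-1-/- and 19 without tRNA-Phe-3-1-/-, and 0 to 62 when 1 sample was left out. The 9 shared genes became 0 without a variance trend, 57 with array weights, 126 in DESeq2 and 0 to 14 with 1 sample left out. The 2419 differences among lines became 4267 with array weights, 3684 in DESeq2 and 1244 to 2426 with 1 sample left out. Calls that rested on 1 WT sample (2) became 1 with a pseudocount of 0.1, 0 without a variance trend, 47 with array weights, 111 in the 4-genotype fit, 8 in edgeR and 72 in DESeq2. Calls kept in all 3 WT refits (0) became 11 in the 4-genotype fit, 6 with array weights, 4 in edgeR, 55 in DESeq2 and 26 without a filter. The share of lower calls, 72.5%, was 87.3% without a filter, 78.0% with a mean of at least 50, 81.2% with quantile normalisation, 87.0% in edgeR and 56.7% in DESeq2. The cause of these shifts was not tested.

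As a replicate block the letters left 8 pooled calls (all lower), 1 shared gene, 1909 differences among lines and 0 calls resting on 1 WT sample. The letters do not pair the samples: 3 of 18 same-letter pairs of genotypes had correlated deviations over 0.1, and 2 of 12 samples were closest to their own letter. Brain calls (0) became 1 without a filter or with array weights, 2 in edgeR, 47 in DESeq2, 1 without the tRNA-Phe-3-1-/- line and 0 to 2 with 1 sample left out, all chosen after seeing the data. Of the named genes only Farsb turned sign, to 0.04 with array weights, 0.06 without WT A (-0.07 to 0.06 with 1 sample left out), 0.00 without tRNA-Phe-1-1-/- B and 0.01 without the tRNA-Phe-1-1-/- line, and no called gene changed sign in any alternative. The groups of the called genes did not overlap, which favoured a kept sign. Genes with few reads, such as Myh6 and Irx1, are limited by depth as well as by the 3 WT samples.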
